A study of Stylophora pistillata with 24 samples.

Results

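The genes described here are 2 Rh-type ammonium transporters of Stylophora pistillata, a reef-building coral whose colonies brood their larvae. They are gene15054, named ammonium transporter Rh type A-like, and gene15055, named ammonium transporter Rh type B-like. They were chosen by identifier, as 2 of the 33281 genes in the deposited count table, with earlier results of these data known. Both passed the filter on low counts and were 2 of 25735 genes tested. The names are those of the authors' annotated table, and each gene is called Rh type A or Rh type B below.

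Rh proteins are membrane channels that pass ammonia, and in some members carbon dioxide, down its gradient. In mammals the type A protein sits on red blood cells and the type B protein on epithelia such as those of the kidney. Reef corals both excrete ammonium and keep dinoflagellate algae inside their gastrodermal cells, which use ammonium as a nitrogen source, so transporters of this kind lie on the route between host metabolism, symbiont and sea water. Proteins of the AMT family carry ammonium as well and are the other branch of the same superfamily.

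The 24 libraries were made from poly(A) RNA and formed 8 groups of 3. Planulae (larvae) and adult colonies came from the reef at 5 m (shallow) or 45 m (deep). Juveniles of shallow origin were raised on the reef in plastic settlement chambers, either at 5 m (controls) or moved to 45 m (translocated), and were collected at 8 or 60 days of age. Deep-origin juveniles are not analysed here. Chamber-grown juveniles and wild planulae and adults therefore differed in housing as well as in age. Nothing in the labels ties the 3 samples of a group to different colonies or broods. The p-values reflect only the spread within groups, estimated for each gene over all 24 libraries rather than from the compared groups alone. That spread may be partly technical.

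Library totals ran from 13572866 to 35778913 counts, and the 2 genes had between 24 and 5702 counts in a library. The 10 most abundant genes took 22.8% to 26.9% of all counts in shallow planulae and 13.6% to 16.3% in deep planulae. Shallow planula replicate 1 lay nearer to the deep planulae than the other 2 of its group did, at 134.8 on the first principal component against 159.0 and 159.6, with deep planulae at 124.4 to 129.9. Deep adult replicate 3 had the smallest total and, of all 24, the lowest rank correlation with its own group (median 0.892). In bulk tissue, fewer cells that express a gene and less RNA of it per cell cannot be told apart.

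Levels are TMM-scaled counts per 1000000 (CPM), where TMM, the trimmed mean of M-values, sets the library scale. Rh type A stood at 6.35, 1.93 and 1.91 CPM in the 3 shallow planula libraries and at 33.0, 32.5 and 14.7 CPM in the deep planulae. In 8-day juveniles it stood at 32.8, 32.3 and 20.1 CPM in controls and at 29.2, 34.7 and 34.8 CPM after translocation. In 60-day juveniles the levels were 17.6, 24.4 and 24.7 CPM in controls and 28.3, 27.0 and 34.3 CPM after translocation. Shallow planulae were thus low in every library and the juveniles high in every library. Adults stood at 8.44, 10.6 and 12.1 CPM at 5 m and at 27.8, 25.0 and 20.2 CPM at 45 m, so that the libraries of the 2 depths did not overlap.

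Rh type B followed a similar course at higher counts. It stood at 28.7, 5.06 and 7.89 CPM in shallow planulae and at 118.9, 141.7 and 61.9 CPM in deep planulae. The 8-day controls held 140.1, 165.5 and 111.4 CPM and the 8-day translocated juveniles 154.4, 165.6 and 159.5 CPM. Replicate 1 was the highest shallow planula library for both genes, and replicate 3 was the lowest deep planula library for both. At 60 days, controls held 117.7, 131.7 and 118.5 CPM and translocated juveniles 152.3, 148.8 and 200.0 CPM. Shallow adults held 82.4, 76.3 and 70.3 CPM and deep adults 127.0, 134.6 and 75.1 CPM. Deep adult replicate 3 lay within the shallow adult range for Rh type B, and above it for Rh type A.

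Ordered by group mean, Rh type A was lowest in shallow planulae (3.40 ± 2.56 CPM, SD, n = 3), followed by shallow adults (10.4 ± 1.82). Neither of these groups overlapped with the next group up. The 6 groups above them, from 60-day controls (22.2 ± 4.0) to 8-day translocated juveniles (32.9 ± 3.23), each overlapped with their neighbour in the order. Rh type B was also lowest in shallow planulae (13.9 ± 12.9 CPM), with no overlap with shallow adults (76.3 ± 6.07), the next group up. From there to the highest group, 60-day translocated juveniles (167.0 ± 28.6), every group overlapped with its neighbour.

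**Figure D1:**
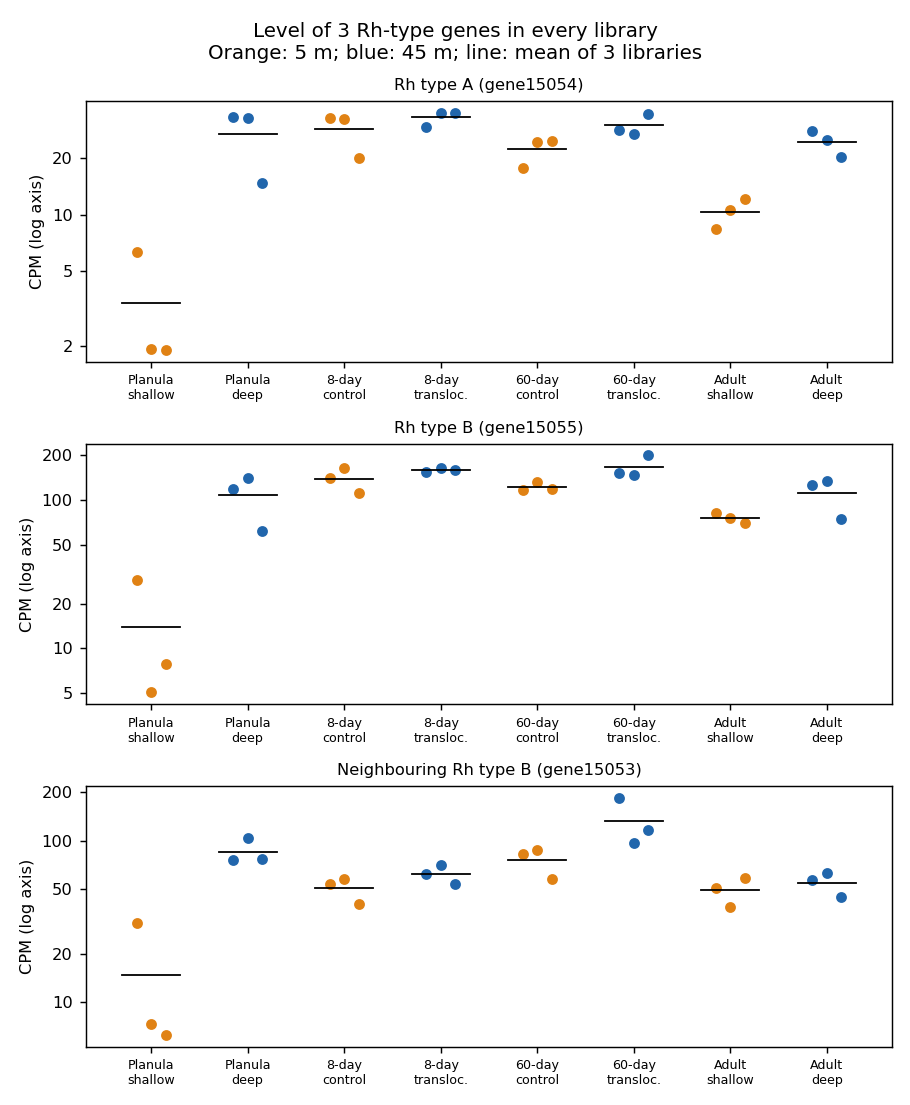
Level of Rh type A (gene15054), Rh type B (gene15055) and the neighbouring Rh type B gene (gene15053) in each of 24 libraries, in CPM on a log axis. Points are libraries (orange 5 m, blue 45 m), lines are arithmetic means of 3, and shallow planulae are the lowest group in all 3 panels.

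The comparison of native planulae asks how larvae released at the 2 depths differ. Both Rh genes rose in deep planulae. Rh type A was 7.87-fold higher (log2 fold change 2.98, SE 0.40, adjusted p = 6.78e-05) and Rh type B 7.75-fold higher (2.95, SE 0.45, adjusted p = 0.000238). Unless another tool is named, adjusted p-values are from edgeR's quasi-likelihood test, adjusted after Benjamini and Hochberg across every gene tested. In this comparison 22.9% of all genes tested were called at an adjusted p under 0.05, 12.5% higher and 10.4% lower in deep planulae. By p, Rh type A ranked 141 and Rh type B 298 of 25735 genes. Because the genes were chosen with earlier results of these data known, these ranks and p-values may not be independent of that choice. Without shallow planula replicate 1, the log2 fold change was 3.80 for Rh type A and 4.06 for Rh type B.

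Scaling by library totals instead of TMM moved the median of all genes in this comparison by 0.45 on the log2 scale. Under it the log2 fold change was 3.44 for Rh type A and 3.40 for Rh type B. Of the 4 genes taken by name as markers of cells hosting algae (sterol transporters of the Niemann-Pick type), 2 rose and none fell in deep planulae. Their summed level ran from 88.4 to 133.3 CPM in shallow and 138.4 to 163.5 CPM in deep libraries. Whether each of them marks such cells in these samples was not tested. Gland and digestive markers summed to 412.8 to 433.9 CPM in shallow and 273.9 to 280.1 CPM in deep planulae, with 2 of 36 higher and 3 lower. Of 63 skeleton-related genes tested 9 rose and 6 fell, with summed levels of 9377 to 10150 CPM in shallow and 5199 to 10291 CPM in deep planulae, and 8 of the list's 72 genes had 0 counts in every shallow library against 2 in deep ones. Of 131 neuronal genes tested 16 rose and 6 fell, with sums of 2394 to 2919 CPM in shallow and 2137 to 2449 CPM in deep planulae. Over all genes tested 12.5% were called higher and 10.4% lower. The shares that rose in the skeleton-related and neuronal lists lay near the first of these. Median log2 fold changes were 0.23, 0.56 and 0.42 in the gland and digestive, skeleton-related and neuronal lists, against 0.09 over all genes tested. Mean sums of these lists were lower in deep planulae, so sums and medians pointed opposite ways. The medians were 0.54 in the algae-hosting list and -0.10 in the sperm and egg list. Neither the 9 sperm and egg markers (400.1 to 431.6 and 415.2 to 547.5 CPM) nor the 1 stinging-cell gene (0 to 0.378 and 0.154 to 0.511 CPM) held a called gene, and no gene had a dinoflagellate-type name. The part of these cell types, and of the share taken by the most abundant genes, in the difference between planulae was not tested.

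The adult comparison asks the same of adult colonies, which no label ties to the sampled planulae. Rh type A was 24.4 ± 3.85 CPM in deep and 10.4 ± 1.82 CPM in shallow adults (log2 fold change 1.24, SE 0.37, adjusted p = 0.0429), in a comparison in which 8.11% of all genes were called, 3.77% higher and 4.33% lower. That call stood close to the threshold. It was lost without any 1 of the 6 adult libraries (log2 fold change 1.10 to 1.36, adjusted p 0.0533 to 0.149). The lowest of these adjusted p-values was without deep adult replicate 3 and the highest without shallow adult replicate 1. In the authors' deposited table the log2 fold change of Rh type A was 1.26 with an adjusted p of 0.0633, and that of Rh type B 0.58 with an adjusted p of 0.592. Rh type B stood at 112.2 ± 32.4 CPM in deep and 76.3 ± 6.07 CPM in shallow adults, and the difference did not pass the test (0.56, SE 0.42, adjusted p = 0.454).

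The native depth difference was tested against itself between the life stages. It was larger in planulae than in adults by 1.74 (SE 0.52, adjusted p = 0.0343) for Rh type A and by 2.40 (SE 0.60, adjusted p = 0.0151) for Rh type B on the log2 scale, and 12.9% of all genes were called in this test, 6.58% in that direction and 6.35% in the other. For Rh type B the call held without any 1 of the 12 planula and adult libraries (largest adjusted p 0.0443). For Rh type A it was lost without shallow planula replicate 2 (adjusted p = 0.0906) or 3 (0.0901), deep planula replicate 1 (0.0777) or 2 (0.0777), deep adult replicate 3 (0.0725), or shallow adult replicate 2 (0.0625) or 3 (0.0640). In a fit of the planula and adult libraries alone neither gene passed (adjusted p = 0.121 and 0.0847).

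Translocation asks what a move from 5 to 45 m does to juveniles of shallow origin. After 8 days, neither gene passed the test. Rh type A averaged 32.9 ± 3.23 CPM in translocated and 28.4 ± 7.19 CPM in control juveniles (log2 fold change 0.21, 95% interval -0.55 to 0.97, adjusted p = 0.979). For Rh type B these means were 159.8 ± 5.61 and 139.0 ± 27.1 CPM (0.20, -0.68 to 1.09, adjusted p = 0.982). Only 0.00389% of all genes, 1 gene, was called at 8 days, against 1397 at an unadjusted p under 0.05 and 92 with DESeq2.

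After 60 days all 3 translocated libraries lay above all 3 controls for both genes, and neither difference passed the test. How many of all genes had groups apart in this way was not counted, here or in the other comparisons. The 2 genes also ran closely together over the 24 libraries (Pearson's r = 0.955 of log2(CPM + 1)), so they are not 2 separate observations. Rh type A was 29.9 ± 3.89 CPM in translocated juveniles and 22.2 ± 4.0 CPM in controls (log2 fold change 0.43, 95% interval -0.34 to 1.19, adjusted p = 0.603). Rh type B was 167.0 ± 28.6 and 122.6 ± 7.89 CPM (0.45, -0.44 to 1.33, adjusted p = 0.650). Of all genes, 2.36% were called at this age, 1.08% higher and 1.28% lower. The change of the translocation effect between the ages did not pass for Rh type A (0.21, SE 0.51, adjusted p = 0.993) or Rh type B (0.24, SE 0.59, adjusted p = 0.993), with 0.0777% of all genes called (0.035% higher, 0.0427% lower).

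Along the life cycle at 5 m, the largest step was from planula to 8-day juvenile. From shallow planulae to 8-day controls Rh type A rose by 3.06 (SE 0.40, adjusted p = 5.44e-06) and Rh type B by 3.32 (SE 0.46, adjusted p = 1.17e-05) on the log2 scale. To 8-day juveniles at 45 m the rises were 3.28 (SE 0.40, adjusted p = 2.78e-06) and 3.52 (SE 0.46, adjusted p = 6.57e-06). These steps called 39% and 41.6% of all genes, with 21% and 22% of all genes higher and 18.1% and 19.5% lower, and they share the shallow planula libraries with each other and with the planula comparison. Between 8 and 60 days neither gene passed in controls (-0.35 and -0.18, adjusted p = 0.624 and 0.855) or in translocated juveniles (-0.14 and 0.06, adjusted p = 0.877 and 0.957). In controls 8.51% of all genes were called (3.83% higher, 4.69% lower) and in translocated juveniles 7.41% (3.38% higher, 4.03% lower).

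From 60-day controls to shallow adults Rh type A fell by 1.10 (SE 0.36, adjusted p = 0.0273), with no overlap, where 31.4% of all genes were called, 16.7% higher and 14.7% lower. That call was lost without 60-day control replicate 2 (adjusted p = 0.0676) or 3 (0.0813), or without shallow adult replicate 1 (0.0984) or 2 (0.0678). Rh type B was 122.6 ± 7.89 CPM in 60-day controls and 76.3 ± 6.07 CPM in shallow adults, also without overlap, and did not pass (-0.68, SE 0.42, adjusted p = 0.225). In a fit of those 6 libraries alone, which estimates the spread from them only, it did (adjusted p = 0.00985). Shallow adults stood above shallow planulae by 1.61 (SE 0.38, adjusted p = 0.00158) for Rh type A and 2.46 (SE 0.44, adjusted p = 0.000135) for Rh type B, in a comparison that called 54.3% of all genes, 30.9% higher and 23.4% lower. At 45 m, adults and planulae did not differ past the test in Rh type A (-0.13, 95% interval -0.90 to 0.63) or Rh type B (0.06, -0.82 to 0.95), where 44.6% of all genes were called, 23.9% higher and 20.7% lower. In the authors' deposited table shallow planulae lay below shallow adults by a log2 fold change of -1.61 in Rh type A and -2.46 in Rh type B, with adjusted p-values of 0.00268 and 7.06e-05.

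**Figure D2:**
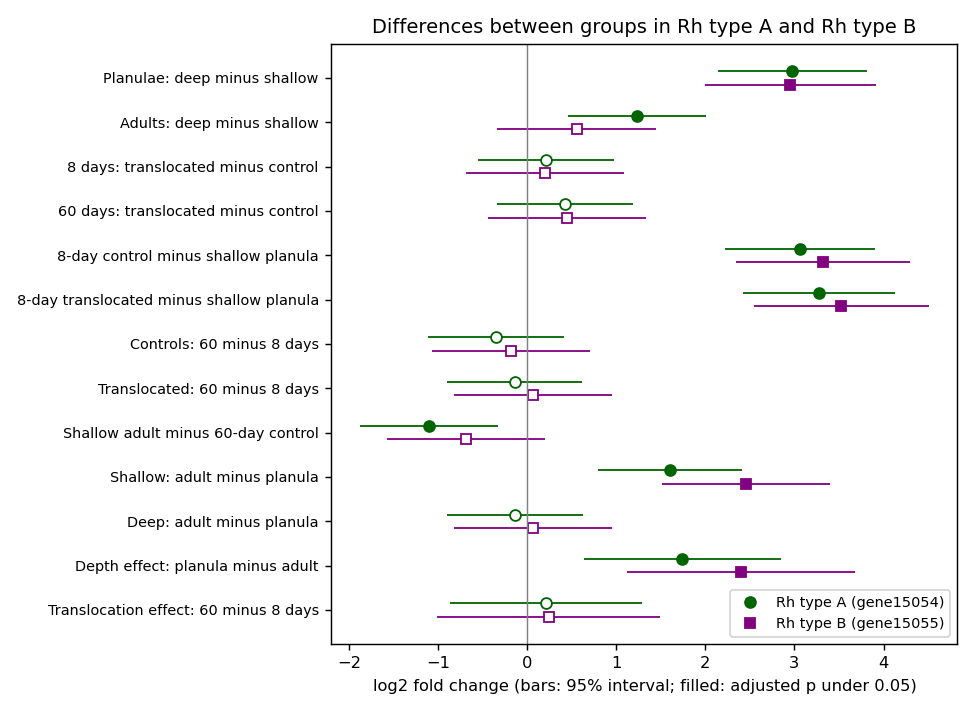
Log2 fold changes of Rh type A (circles) and Rh type B (squares) in 13 comparisons, with 95% intervals as bars and filled symbols where the adjusted p is under 0.05. The largest differences are those against shallow planulae, and the translocation intervals at both ages include 0.

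The ratio of the genes within a library is free of scaling between libraries. The log2 ratio of Rh type A to Rh type B counts averaged -1.87 ± 0.42 (SD, n = 3) in shallow planulae, -2.01 ± 0.14 in deep planulae, -2.31 ± 0.19 and -2.28 ± 0.11 in 8-day control and translocated juveniles, and -2.48 ± 0.24 and -2.48 ± 0.06 at 60 days. It was -2.90 ± 0.37 in shallow adults and -2.17 ± 0.27 in deep adults, whose libraries ran from -3.29 to -2.54 and from -2.43 to -1.89 and did not overlap. Deep and shallow planulae overlapped in this ratio. Per kilobase of the lengths in the authors' table (2852 bases for Rh type A and 1307 for Rh type B), Rh type B was the more abundant in every library, by 5.72-fold in a shallow planula library to 21.3-fold in a shallow adult one. Group means ran from 1.19 to 11.5 CPM per kilobase for Rh type A and from 10.6 to 127.8 CPM per kilobase for Rh type B.

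**Figure D3:**
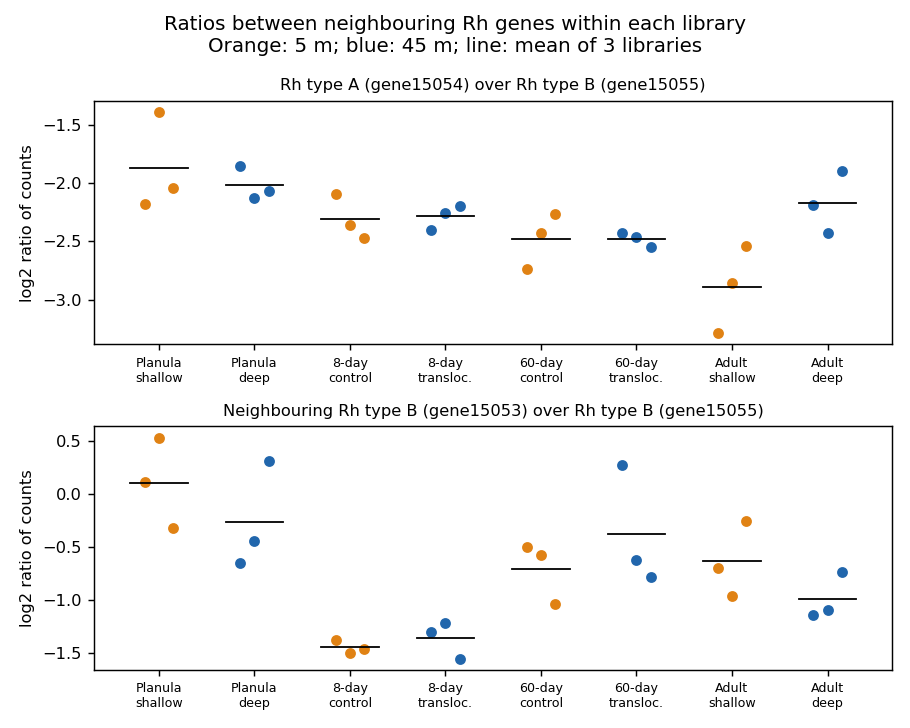
Log2 ratio of counts within each library, for Rh type A over Rh type B (top) and for the neighbouring gene15053 over Rh type B (bottom), with points for libraries (orange 5 m, blue 45 m) and lines for means of 3. The top ratio is lowest in shallow adults (mean -2.90), and the bottom ratio is lowest in 8-day juveniles (means -1.45 and -1.36).

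In the RefSeq gene table of assembly jaStyPist1.2, used here for gene order alone, the genes stand side by side with another Rh gene, in the order gene15055, gene15054 and gene15053, and do not overlap one another. That gene, gene15053, also bears the name Rh type B-like. It stood at 31.0, 7.33 and 6.29 CPM in shallow planulae and at 75.8, 104.3 and 76.6 CPM in deep planulae, and so rose without overlap (log2 fold change 2.53, SE 0.44, adjusted p = 0.000622, and 3.65 without shallow planula replicate 1). In adults it stood at 55.2 ± 9.28 CPM at 45 m and 49.7 ± 9.97 CPM at 5 m and did not pass (0.15, adjusted p = 0.866). Its depth difference was larger in planulae than in adults by 2.37 (SE 0.59, adjusted p = 0.0146), and did not pass in a fit of those libraries alone (adjusted p = 0.0702). At 60 days it stood at 183.6, 96.4 and 116.0 CPM in translocated juveniles and 83.0, 88.1 and 57.7 CPM in controls, apart but not past the test (0.79, SE 0.41, adjusted p = 0.346). Its log2 ratio to Rh type B counts was 0.11 ± 0.43 in shallow planulae, -1.45 ± 0.06 in 8-day controls and -0.71 ± 0.29 in 60-day controls, so the juveniles of 8 days held relatively little of it. How reads shared by similar copies were counted was not given in the sources used here, so the split of reads among the 3 neighbours is uncertain.

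Beyond this row of Rh genes, the next gene on the side of gene15055, gene15056 (an uncharacterized oxidoreductase YjmC-like), fell by 0.73 (SE 0.17, adjusted p = 0.00553) in deep planulae, opposite in sign to the Rh genes. Next to it, gene15057, an uncharacterized protein, fell by 1.42 (SE 0.47, adjusted p = 0.0352). The zinc transporter gene15059 did not pass (0.43, adjusted p = 0.343). On the other side, the protein-coding gene next to gene15053 had no match among the authors' annotated genes and was not measured here. Beyond it, gene15050 (-0.70, adjusted p = 0.553) and gene15049 (0.32, 0.530) did not pass. Gene15050 was near the floor, at 0.50 CPM in deep and 0.83 CPM in shallow planulae. The remaining Rh gene, gene1453 (Rh type A-like), lies elsewhere. It stood at 16.2 ± 5.31 CPM in deep and 11.2 ± 3.70 CPM in shallow planulae (0.54, SE 0.28, adjusted p = 0.182) and passed in none of the 4 depth comparisons. With library totals the planula difference was 0.98 and passed (adjusted p = 0.00999).

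The table names 18 ammonium transporters in all, 4 of the Rh type and 14 of the AMT type, and 17 were tested (gene18911, with 65 counts in all, did not pass the filter). In deep planulae 5 of the 17 rose and none fell, where 12.5% of all genes were called higher and 10.4% lower, with a median log2 fold change of 0.30 against 0.09 over all genes tested. They were the 3 neighbouring Rh genes and the AMT genes gene13716 and gene18912. With library totals 7 rose, and the highest count of falls under any alternative was 1. In adults 1 of 17 passed (Rh type A), where 3.77% of all genes were called higher, and at 8 and 60 days after translocation none did. The putative ammonium transporter 1 gene13716 stood at 102.8, 101.5 and 78.0 CPM in deep and 26.5, 34.6 and 39.7 CPM in shallow planulae (log2 fold change 1.49, SE 0.24, adjusted p = 0.000349). Unlike the Rh genes it was at its highest in deep planulae and stood at 6.51 ± 0.777 CPM in 60-day controls. The putative ammonium transporter 3 gene18912 stood at 9.33, 9.10 and 6.04 CPM in deep and 2.87, 3.60 and 4.14 CPM in shallow planulae (1.20, SE 0.37, adjusted p = 0.0230). Its call was lost without shallow planula replicate 1 (adjusted p = 0.0750) or 2 (0.0664), or deep planula replicate 1 (0.0728) or 2 (0.0714), which left 4 of the 17 genes called.

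The other AMT genes gave no call in a depth comparison in the fit of all libraries, and gene18874 had 0 counts in all 3 shallow planula libraries and at most 3 in a deep one. Gene13719, a putative ammonium transporter 1, had the most counts of the 18, with 526.9 ± 122.4 CPM in deep and 427.4 ± 3.42 CPM in shallow planulae. The next by counts among the AMT genes, gene13718 (putative ammonium transporter 1), stood at 98.1 ± 26.2 CPM in deep and 172.0 ± 21.3 CPM in shallow adults (-0.81, adjusted p = 0.0575). It passed there with library totals (-1.04, adjusted p = 0.0117), a replicate block (0.0483), DESeq2 (0.0222) and without deep adult replicate 3 (-1.05, 0.0290). At 60 days it stood at 407.2 ± 106.4 CPM in translocated juveniles and 247.9 ± 52.2 CPM in controls (0.72, adjusted p = 0.155) and passed with DESeq2 alone of the alternatives (0.81, 0.0305). Gene13722, another putative ammonium transporter 1, stood at 30.7 ± 9.15 CPM in deep and 69.1 ± 3.84 CPM in shallow planulae, and at 56.8 ± 30.0 CPM in deep and 25.1 ± 12.99 CPM in shallow adults. Neither of its depth differences passed, and the difference between them did (-2.35, SE 0.59, adjusted p = 0.0156), though not in a fit of those libraries alone (adjusted p = 0.0595).

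**Figure D4:**
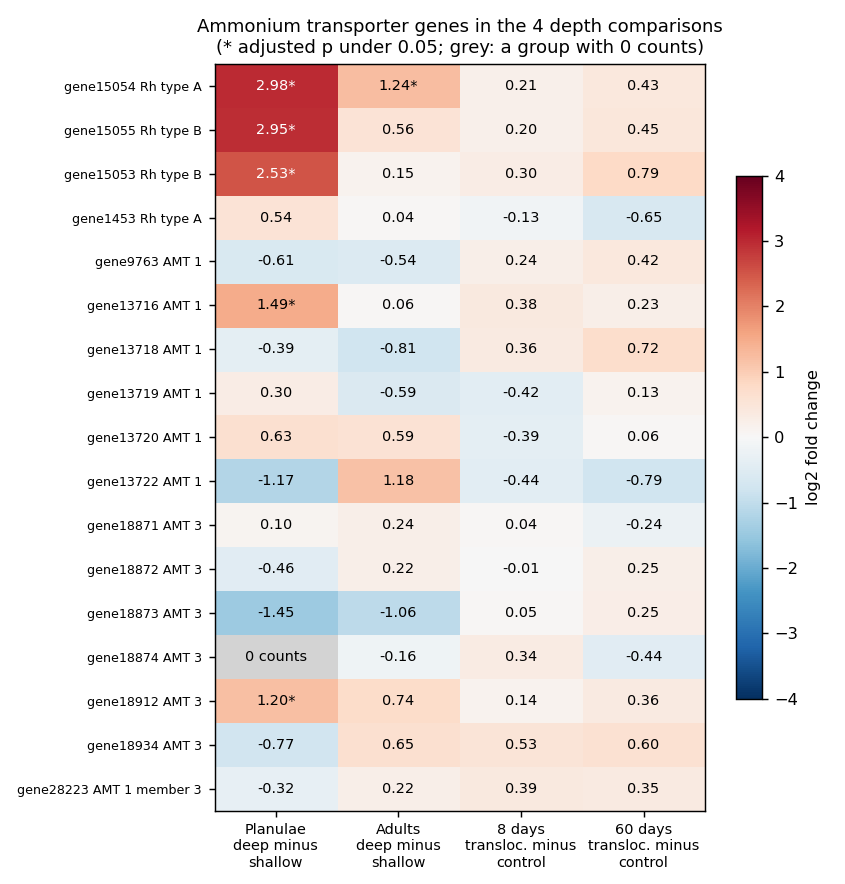
Log2 fold changes of the 17 tested ammonium transporter genes (rows, AMT for ammonium transporter) in 4 depth comparisons (columns), with an asterisk where the adjusted p is under 0.05 and grey where a group had 0 counts. Asterisks stand at 5 genes in planulae, at Rh type A in adults and at none after translocation.

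Ammonium inside the cell is fixed into amino acids by glutamine synthetase, which adds it to glutamate, by glutamate synthase, which makes glutamate from glutamine, and by glutamate dehydrogenase, which links ammonium with glutamate and can run either way. The assimilation list of 10 genes was made by words in names. Beside these enzymes it takes in a glutaminase (gene24160), a folylpolyglutamate synthase and an N-acetylglutamate synthase. It also holds an asparagine synthetase (gene8955) and an asparagine synthetase domain gene (gene16181). Of the 10 genes, 1 rose and 1 fell in deep planulae, none passed in adults or at 8 days and 2 fell at 60 days after translocation. Among all genes 12.5% were called higher and 10.4% lower in planulae, near the list's share, and 1.28% lower at 60 days. The number that rose in planulae was 0 to 1 without 1 library and up to 4 under the other alternatives. The glutamine synthetase gene8746 stood at 66.1, 59.4 and 43.5 CPM in deep and 167.3, 169.4 and 156.6 CPM in shallow planulae. It fell by 1.54 (SE 0.42, adjusted p = 0.0130) where the Rh genes rose, a call lost without deep planula replicate 3 (-1.39, adjusted p = 0.0548). The more abundant glutamine synthetase gene8755 stood at 411.0 ± 89.5 and 338.1 ± 72.1 CPM (0.28, SE 0.31, adjusted p = 0.553), and with library totals the difference was 0.69 and passed (adjusted p = 0.0441).

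Glutamate synthase gene1462 stood at 282.6, 342.9 and 145.8 CPM in deep and 107.0, 120.0 and 135.3 CPM in shallow planulae (1.09, SE 0.33, adjusted p = 0.0211). That rise was lost without shallow planula replicate 1 (adjusted p = 0.0634) or 2 (0.0651), or deep planula replicate 1 (0.0602) or 2 (0.110). At 60 days the same gene stood at 95.2, 89.4 and 179.4 CPM in translocated juveniles and 344.3, 371.0 and 197.5 CPM in controls, a fall of 1.33 (SE 0.33, adjusted p = 0.0359). It was lost without 60-day control replicate 1 (adjusted p = 0.0916) or 2 (0.107), or translocated replicate 1 (0.114) or 2 (0.161), and with DESeq2's size factors (0.0564).

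Glutamate dehydrogenase gene3742 stood at 57.2, 39.5 and 57.6 CPM in translocated 60-day juveniles and at 143.9, 115.1 and 173.6 CPM in controls. It fell by 1.49 (SE 0.21, adjusted p = 0.000591) without overlap, and in a fit of these 6 libraries alone it did not pass (-1.44, adjusted p = 0.0762). The mitochondrial glutamate dehydrogenase gene22203 stood at 147.4 ± 22.2 CPM in translocated juveniles and 74.4 ± 14.5 CPM in controls and did not pass (0.99, SE 0.41, adjusted p = 0.225).

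**Figure D5:**
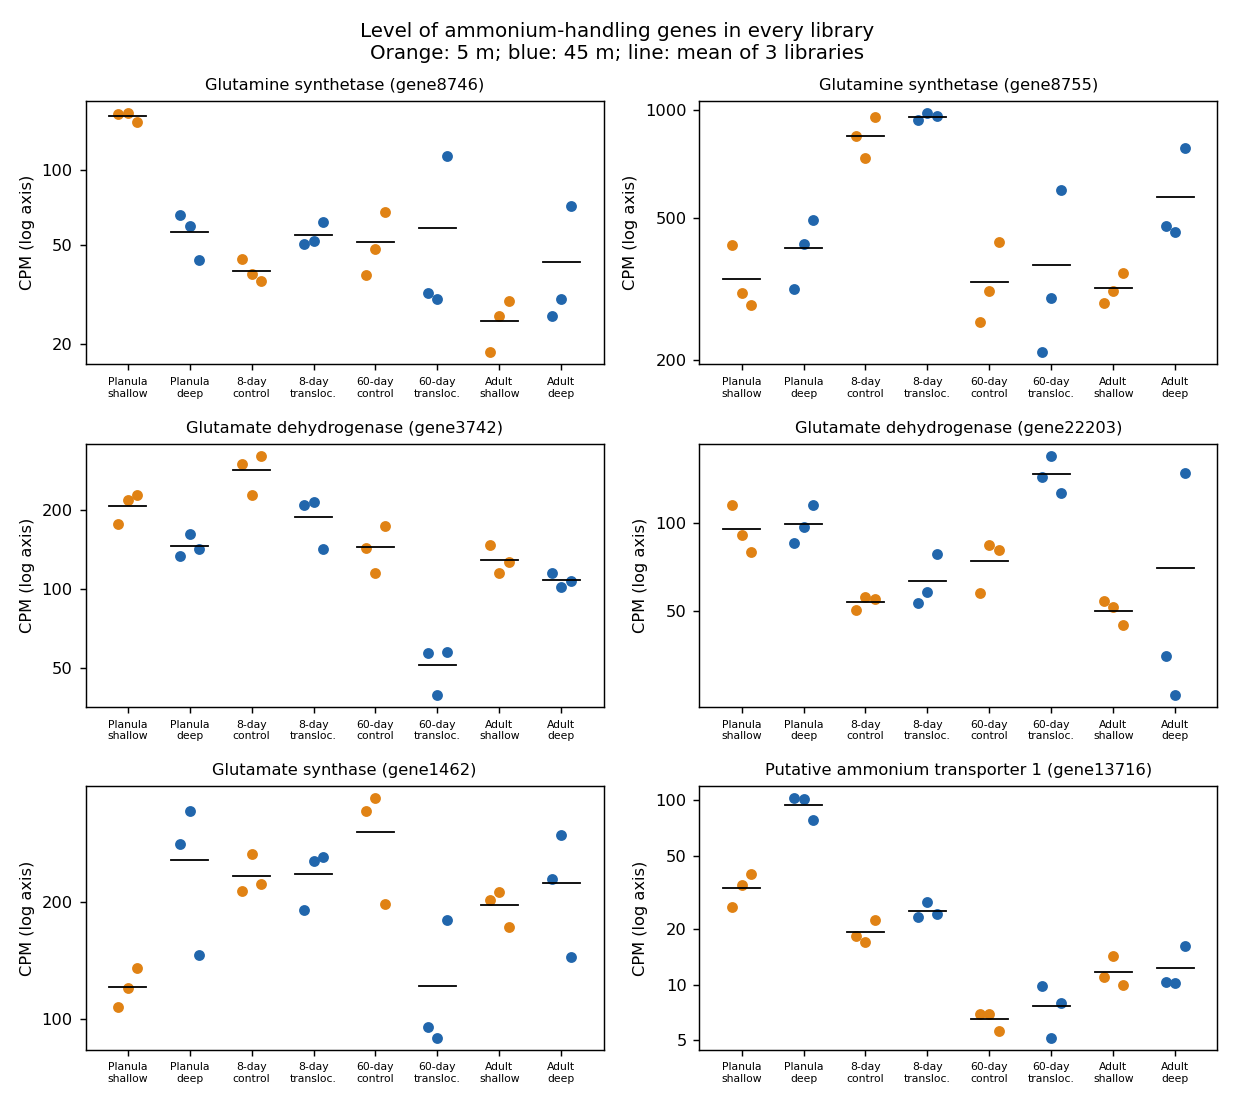
Level of 2 glutamine synthetases, 2 glutamate dehydrogenases, glutamate synthase and the AMT gene gene13716 in each of 24 libraries, in CPM on log axes, with points for libraries (orange 5 m, blue 45 m) and lines for means of 3. Shallow planulae hold the highest gene8746 levels, and the 3 translocated 60-day libraries hold the lowest gene3742 levels.

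Proton pumps and acid-base enzymes set the pH on which the share of ammonia and ammonium depends. Of 15 V-type proton ATPase genes, 3 fell and none rose in deep planulae, among them the proteolipid subunit gene6032 with 439.6 ± 107.0 CPM in deep and 787.2 ± 52.2 CPM in shallow planulae (-0.84, SE 0.27, adjusted p = 0.0304). Its call was lost in 4 of 6 fits that left out 1 planula library (range -1.03 to -0.68), the largest adjusted p being without deep planula replicate 1 (0.129), and those of gene22520 and gene8318 in 5 of 6. Without 1 library the list held 0 to 2 falls, and with library totals none fell and 2 rose. Of 26 carbonic anhydrase and bicarbonate transport genes, 2 rose and 2 fell in deep planulae, a smaller share than the 12.5% and 10.4% over all genes. A carbonic anhydrase 2-like gene, gene14037, stood at 775.7 ± 172.4 CPM in deep and 2626 ± 317.5 CPM in shallow planulae (-1.76, SE 0.42, adjusted p = 0.00544). The sodium bicarbonate exchanger gene19533 rose from 486.7 ± 86.6 to 1272 ± 431.0 CPM (1.39, SE 0.36, adjusted p = 0.00954). Medians over these lists were -0.08 and 0.00 against 0.09 over all genes tested.

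Aquaporins are water channels, some of which pass small neutral solutes. Of 4, aquaporin-4-like gene11452 fell from 292.1 ± 37.3 CPM in shallow to 72.4 ± 23.9 CPM in deep planulae (-2.01, SE 0.35, adjusted p = 0.000600), and 2 others rose, gene12733 (1.67) and gene12734 (0.87), with calls lost in 4 and 5 of the 6 fits without 1 planula library. Of 14 amino acid transporters for glutamine and glutamate, 4 rose and 1 fell in deep planulae, with a median log2 fold change of 0.11 against 0.09 over all genes tested. Without 1 library 2 to 3 of the 14 rose. The shares of all genes called in this comparison were 12.5% higher and 10.4% lower. The neutral amino acid transporter gene22178 rose from 7.24 ± 2.18 to 37.2 ± 10.3 CPM (2.36, SE 0.46, adjusted p = 0.00136). Of 7 urea and ornithine genes 1 rose in planulae, arginase-1-like gene21668 (0.90, adjusted p = 0.0316), and its call was lost in 4 of the 6 fits.

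In adults, 1 of 15 V-type ATPase genes rose, 2 of 26 carbonic anhydrase and bicarbonate transport genes rose and 1 fell, and no aquaporin, amino acid transporter or urea gene passed. Over all genes tested, 3.77% were called higher and 4.33% lower in deep adults. The rise of the carbonic anhydrase gene25727 there was 2.53 (adjusted p = 0.0294) with overlapping groups, and 0.17 (adjusted p = 0.877) without deep adult replicate 3. Without that library the other, gene8644, fell short too (3.29 against 9.31 with all libraries, adjusted p = 0.0727), and the V-type ATPase gene24565 lost its call in 5 of 6 fits without 1 adult library (0.45, adjusted p = 0.242, without deep adult replicate 3). After 60 days of translocation 1 V-type ATPase gene fell, 3 carbonic anhydrases rose, 1 aquaporin rose and 1 fell, 1 urea gene fell and no amino acid transporter passed, while after 8 days no gene of any of these lists passed. The shares over all genes tested were 1.08% higher and 1.28% lower at 60 days, and 1 gene was called at 8 days. None of these 60-day calls held in a fit of the 6 libraries alone. The urea gene, gene8698, lost its call without any 1 of the 6 libraries (adjusted p 0.0574 to 0.150), and without 60-day control replicate 3 none of the 7 genes passed (lowest adjusted p 0.0550, for the carbonic anhydrase gene8642).

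Among 10407 genes with an informative name and at least 10 CPM in their highest group, likeness to each Rh gene was measured as Pearson's r of log2(CPM + 1) over the 8 group means, which share their libraries and the low level in shallow planulae. Rh type A and Rh type B had an r of 0.966 with each other, and 0.955 over the 24 libraries. For several of the genes named next the r over the 24 libraries was much lower, at 0.550 for gene5447, 0.713 for gene24650, 0.740 for gene13369, 0.595 for gene5265, and for gene517 0.597 with Rh type A and 0.658 with Rh type B. The 5 genes most like Rh type A were a potassium channel subfamily K member 3-like gene (gene5447, r = 0.979), 2 trichohyalin-like genes (gene13463, 0.977, and gene24650, 0.971), a muscle-type receptor tyrosine kinase-like gene (gene13369, 0.972) and a phosphopantothenoylcysteine decarboxylase subunit-like gene (gene517, 0.970). The first of these averaged 0.216 CPM in shallow and 13.9 CPM in deep planulae, and gene13463 averaged 819.6 and 3987 CPM. The 5 most like Rh type B were a PRDM6-like gene (gene179, 0.990), gene517 (0.988), a homeobox OTX-like gene (gene12129, 0.988), a cytosolic beta-glucosidase-like gene (gene5265, 0.982) and a hemicentin-1-like gene (gene391, 0.981). The OTX-like gene averaged 5.43 CPM in shallow planulae, 76.7 CPM in deep planulae and 149.5 CPM in 8-day controls. The neighbour gene15053 stood at rank 200 for Rh type A (r = 0.854) and at rank 184 for Rh type B (r = 0.893).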

How the data were processed

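The tested values are raw gene counts of 24 libraries, as deposited by the authors. A second deposited table gives names, lengths, normalised signal (FPM, fragments per 1000000), FPKM, log2 fold changes and adjusted p-values made by the authors for 12 planula and adult libraries. Its FPM are proportional to the counts and its FPKM are FPM per kilobase in 100% of values (relative tolerance 1e-06). In that table the deep against shallow planula column holds, for all 26602 genes, the values of another comparison (deep planulae with deep adults), and it was not used. The submitters' processing notes list DESeq2, Trimmomatic, cutadapt, MultiQC and FastQC. Which aligner, counter, build and strand setting were used was not given in the sources used here, nor was the handling of molecular identifiers. Per the labels' protocols, poly(A) RNA came from 500 ng of total RNA with an integrity number above 7.7.

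The analysis used edgeR 4.0.16 under R 4.3.3. Low genes were dropped by filterByExpr over the 8 groups (25735 of 33281 stayed), libraries were scaled by TMM, and 1 quasi-likelihood fit of all 24 libraries with 16 residual degrees of freedom gave 13 comparisons (2-sided tests, Benjamini-Hochberg adjusted across genes, threshold 0.05). The SE is the log2 fold change over the square root of F, and 95% intervals use it. The procedure was tested on simulated data for the planula comparison. It recovered 20% of 2-fold and 82% of 8-fold changes, with 1 call among the unchanged genes. Only 200 genes were changed among 25250 tested there, and the planula groups were otherwise set alike. In the data 22.9% of genes were called, so these rates need not carry over. Smaller changes were not simulated. Alternatives were DESeq2 1.42.0, 2 other scalings, no filter, a fit of the compared libraries alone, a replicate block and leaving out each library. Named genes were the Rh genes, the other ammonium transporters, the genes beside them, the 5 most alike, and the leading genes of lists by name. The members and lists were chosen with earlier results of these data known.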

Additional observations from a re-analysis of the deposited data

Results flagged for a closer look

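The depth difference (deep minus shallow, log2 scale) was larger in planulae than in adults, by a test of the difference itself at an adjusted p under 0.05, for Rh type B (2.40), Rh type A (1.74), the neighbouring Rh gene15053 (2.37) and the AMT gene gene13716 (1.42). It was lower in planulae for the AMT gene gene13722 (-2.35) and the glutamine synthetase gene8746 (-2.33). Among the other named genes it was higher in planulae, sign included, for the amino acid transporters gene22178 (2.65) and gene22177 (1.17) and aquaporin-7-like gene12733 (2.29). The same held for arginase-1-like gene21668 (1.82) and the carbonic anhydrase gene25728 (1.75). In these 2 genes the adult differences were -0.92 and -2.15, so the contrast does not mean a larger difference in planulae. With its sign, the depth difference was lower in planulae for aquaporin-4-like gene11452 (-2.96), the carbonic anhydrases gene25727 (-2.98) and gene21459 (-1.56) and the V-type proton ATPase subunit gene6032 (-1.41). Leaving out 1 library lost the call of gene22177 in 10 of 12 fits, of gene25727 in 9, of gene25728 and gene12733 in 8, of Rh type A in 7, of gene6032 in 5 and of gene8746 in 1. In a fit of the planula and adult libraries alone the calls of gene11452, gene13716, gene21668 and gene8746 held and those of the other 11 genes did not. Without deep adult replicate 3 the value for gene25727 was -0.62 (adjusted p = 0.439). Without deep planula replicate 3 the value for gene22177 was 0.56 (0.132) and that for gene25728 was 1.01 (0.157).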

How the results depend on the processing

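The planula depth difference and the planula-to-juvenile rises of both Rh genes passed in all alternatives run. In planulae the range over fits without 1 library was 2.69 to 3.80 for Rh type A and 2.56 to 4.06 for Rh type B. For Rh type A the adult difference, 1.10 to 1.36 without 1 library, did not pass with library totals (1.08, adjusted p = 0.129), no filter (1.22, 0.0520), a replicate block (1.20, 0.0560) or adult libraries alone (1.25, 0.0559), and passed with DESeq2 (adjusted p = 0.0102). For its fall from 60-day controls to shallow adults, library totals gave -0.94 (0.0984), and -1.25 to -0.97 without 1 library, while Rh type B passed on those libraries alone (-0.67, 0.00985). The planula minus adult difference did not pass on those libraries alone (1.74 and 2.41) and ran without 1 library from 1.46 to 2.56 for Rh type A and from 2.0 to 3.50 for Rh type B.

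Some signs turned. With library totals, deep adults minus deep planulae was 0.31 for Rh type A and translocated 60 minus 8 days was -0.11 for Rh type B; without 1 library these ran from -0.43 to 0.043 and from -0.089 to 0.14, and deep adults minus deep planulae in Rh type B from -0.22 to 0.31. Library totals also turned gene1453 in adults (-0.18) and, at 60 days, gene8746 (-0.028) and gene8755 (-0.045). Without 1 library the sign turned for gene22203 in planulae (-0.056 to 0.22) and adults (-0.72 without deep adult replicate 3, to 0.87), gene1453 in adults (from -0.097), and at 60 days gene8746 (-0.71 to 0.55) and gene8755 (-0.38 to 0.43). The cause was not tested.

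Calls over all genes ran with DESeq2 and with the compared libraries alone from 7219 to 4804 in planulae (5896 in the fit used), 3500 to 462 in adults (2086), 1671 to 18 at 60 days (608) and 4893 to 1187 for the planula minus adult difference (3328). Library totals moved the share of calls that were higher from 54.5% to 83.3% in planulae, 46.5% to 34.6% in adults and 45.7% to 26.0% at 60 days, and DESeq2's size factors moved the last to 57.9%. Library totals also moved it from 53.7% and 53.0% to 86.8% and 86.6% for the steps to 8-day control and translocated juveniles, from 45.6% to 26.6% for translocated 60 minus 8 days, from 56.8% to 84.8% and 53.7% to 73.4% for adults minus planulae at 5 and 45 m, from 50.9% to 87.5% for planulae minus adults (5454 calls) and from 45% to 10% for the change of the translocation effect (20 to 10 calls). DESeq2 called 3544 genes for controls (2191) and 3283 for translocated juveniles (1907) from 8 to 60 days and 184 for the change of the translocation effect, and the compared libraries alone 7525 for deep adults minus planulae (11471). Planula calls fell to 3751 and 3814 without shallow planula replicate 2 or 3, adult calls to 1180 and 1165 without shallow adult replicate 1 or 2, 60-day calls to 221 without control replicate 3 (345 to 405 without control replicate 2 or translocated replicate 2 or 3). Without 1 library the lowest counts were 1960 for planulae minus adults (shallow planula replicate 3), 1239 and 889 from 8 to 60 days in controls (60-day replicate 3) and translocated juveniles (8-day replicate 3), 5318 for shallow adults minus 60-day controls (60-day replicate 3) and 1 for the change of the translocation effect (8-day translocated replicate 2). Correlations of same-numbered deviations between compared groups ran from -0.20 to 0.38. Replicate numbers do not always match the letters in the authors' sample names, so these values cannot tell whether samples were paired. With the replicate block 5866 genes were called in planulae and 1858 in adults. Counting error was largest for Rh type A in shallow planulae, with 84, 29 and 24 counts.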
